A study of Danio rerio with 114 samples.

Results

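The RNAs described here are 200 zebrafish maternal RNAs whose capture by polyA selection dropped between the 2-cell and the 1000-cell embryo relative to their level in rRNA-depleted libraries of the same stages. They were chosen from wild-type embryos by a difference called D. D is the log2 change in mean CPM (the usual depth-scaled count, the reads on the gene relative to all reads on genes, with 1 CPM added) from 2 cell to 1000 cell in polyA-selected RNA, minus the same change in rRNA-depleted RNA. Of 31466 gene identifiers counted, 6526 reached 10 CPM both at 2 cell in polyA-selected RNA and at 1000 cell in rRNA-depleted RNA, and the 200 genes with the lowest D were taken. The wild-type 2-cell and 1000-cell values are therefore the basis of the choice and are given without a test.

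Oocytes and eggs store mRNAs that the embryo uses before its own genome is switched on. Polyadenylation of stored mRNAs in the maturing oocyte goes with their translation, and shortening of the tail (deadenylation) goes with silencing and often precedes decay. PolyA selection retains RNAs whose tail is long enough to bind oligo-dT, whereas rRNA depletion retains RNAs with and without a tail, so the rRNA-depleted level follows RNA amount and the ratio of polyA-selected to rRNA-depleted RNA follows capture by oligo-dT. Tail length itself was not measured.

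RNA was sequenced from wild-type fish of the TLAB strain and from *ski7*-/- mutants in the same background, in which CRISPR/Cas9 removed part of the *ski7*-specific exon of the *hbs1l* locus. Ski7 links the cytoplasmic RNA exosome to the SKI complex in yeast. The 11 stages were oocytes of stage I (O1), II (O2), III (O3) and IV-V (O4), unactivated, activated and fertilized eggs, and embryos at the 2-cell, 64-cell, 1000-cell and sphere stages. Each genotype and stage had 3 replicates in polyA-selected RNA, and oocytes and embryos also had 3 in rRNA-depleted RNA, which gave 114 libraries. Oocytes came from 3 females of each genotype, each egg replicate was taken from a single female at all 3 egg stages, and each embryo sample pooled several embryos. Only eggs of good quality were taken, and mutant females tend to lay poor eggs. Depth was between 2910639 and 145420525 reads on genes in polyA-selected libraries and between 1439427 and 46600444 in rRNA-depleted libraries, where 3 reads equalled between 0.0206 and 1.03 CPM and between 0.0644 and 2.08 CPM. CPM is a share of the library, so less RNA of a gene and more RNA of all others cannot be told apart. Of 9 germ line and oocyte markers, 8 were matched, and their summed level was at least 966.9 CPM in every library.

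Some libraries stood apart. An identifier without a symbol, ENSDARG00000115819, exceeded 1000 CPM in 9 rRNA-depleted libraries, with the highest value of 6751 CPM in wild-type 64-cell replicate 1 and 3656 CPM in 1000-cell replicate 2. This identifier is itself among the 200, with D of -3.53, and D became 1.68 when the libraries above 1000 CPM were left out. Without them 186 of the 200 genes stayed among the lowest 200, and 3 more of those that left were identifiers without a symbol whose rRNA-depleted increase came from the same libraries. In unactivated eggs *apoeb*, an apolipoprotein E gene, was at 532.9 and 230.2 CPM in wild-type replicates 2 and 3 and at 1532 CPM in *ski7*-/- replicate 3. The polyA-selected O2 library of *ski7*-/- replicate 1 also stood apart, with a median of the 200 RNAs relative to all eligible genes of -0.51 on the log2 scale, against 0.07 in both other replicates. Most counts of members called below that use these libraries are also given without them, a choice made after seeing the data. Those from unactivated to fertilized egg and for unactivated eggs alone are not. Without the libraries that held *apoeb*, replicate 1 is the only wild-type unactivated egg library, and it is assumed to vary like the other groups.

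In wild type the 200 RNAs had D between -3.97 and -1.13, with a median of -1.48, against a median of 0.25 over all 6526 eligible genes. Their median change from 2 cell to 1000 cell was -1.45 on the log2 scale in polyA-selected RNA and -0.01 in rRNA-depleted RNA. For 193 of the 200 the rRNA-depleted change lay between -0.5 and 0.5, and *pef1*, named because it was the only member below -0.5, reached -0.69. A symbol was known for 191 members and not for 9. Just inside the limit were *gas2l3* (-1.14), *pdpk1* (-1.14) and *acy3.1* (-1.13), and just outside were *coil*, *ift57* and *ergic1*, each at -1.13. D was thus continuous across the limit, and the group has no natural edge. D also depends on the scaling, and with CPM scaled by TMM 7004 genes were eligible, the limit was -1.74 and 197 of the 200 stayed among the lowest 200.

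*bub3*, which encodes a spindle checkpoint protein, had the lowest D. Its wild-type polyA libraries read 269, 282 and 252 CPM at 2 cell and 14.3, 10.6 and 22.3 CPM at 1000 cell. Its rRNA-depleted libraries read 157, 160 and 113 CPM and then 144, 150 and 124 CPM. The polyA groups did not overlap and the rRNA-depleted groups did. *cenpe*, which encodes a kinetochore motor, had 1407, 1367 and 1414 CPM and then 113, 121 and 176 CPM in polyA-selected RNA. In rRNA-depleted RNA *cenpe* had 923, 967 and 898 CPM and then 1005, 901 and 943 CPM, again with overlapping groups.

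Genes of the cell cycle made up 12 of the 200. Of 119 eligible genes on the list of cell cycle genes 10.1% were members, whereas the 200 are 3.06% of all eligible genes. The median D of these 119 genes was -0.08, with 64 below 0. Over all eligible genes the median was 0.25 and 39.4% were below 0. The list as a whole thus lay lower than all eligible genes, but 6 of its genes were among the 200 with the highest D. The 12 members were the checkpoint gene *bub3*, the centromere genes *cenpe* and *cenpx*, *birc5* and *aurkb* of the chromosomal passenger complex, the replication genes *cdc45*, *gins2* and *mcm10*, the spindle motor gene *kif11*, the cytokinesis gene *ect2*, *anapc13* of the anaphase-promoting complex, and *fbxo43*, whose product Emi2 inhibits that complex in the egg. *cdc45*, part of the replicative helicase, went from 544, 565 and 589 CPM to 70.0, 77.1 and 68.4 CPM in polyA-selected RNA, while its rRNA-depleted values of 214, 243 and 247 CPM and of 213, 213 and 233 CPM overlapped. Most of the 12 members with a symbol and the lowest D were not on that list. *top2a*, encoding topoisomerase II, had D of -3.36, *fancd2*, encoding a DNA crosslink repair protein, -3.03, and *tacc3*, encoding a spindle microtubule protein, -2.90. The others were *zgc:153345* (-3.65), the IQGAP scaffold gene *iqgap3* (-3.62), the formin gene *fmn2b* (-3.56), *wsb1*, encoding a SOCS box protein (-3.15), *cse1l*, encoding the exporter of importin alpha (-2.87), and the sestrin gene *sesn2* (-2.86).

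Of 19 eligible genes on the germ plasm list 4 were members, which is 21.1%. The median D of these 19 genes was 0.17 and 8 were below 0. Over all eligible genes the median was 0.25 and 39.4% were below 0, so the list as a whole was near them. *dazl*, an RNA-binding protein gene of the germ line, went from 819, 749 and 727 CPM to 251, 203 and 245 CPM in polyA-selected RNA and had D of -1.59. *tdrkh* and *tdrd12*, whose products act in the piRNA pathway, had D of -1.46 and -1.28, and *hook2*, which encodes a dynein adaptor, had -1.16. The ubiquitin list gave 5 of 178, led by the conjugating enzyme genes *ube2t* (-2.08) and *ube2c* (-1.76), *rnf7*, a cullin ligase RING gene (-1.75), and the ligase gene *trim36* (-1.65). Of the chromatin list 3 of 111 genes were members, the histone chaperone gene *asf1b* (-1.95), the H3K9 methyltransferase gene *setdb1a* (-1.39) and *dnmt1*, encoding the maintenance DNA methyltransferase (-1.15). Membrane traffic gave 6 of 172, among them *arl6ip1* (-2.56), *stx2* (-1.63), *arl14ep* (-1.43) and *vps54* (-1.23). Solute carriers gave 4 of 114, *slc1a2*, *slc29a2*, *slc41a2* and *slc39a11*, with D from -2.13 to -1.27, and the cytoskeleton list 3 of 116, the kinesin genes *kif15* (-2.47) and *kif11* (-1.95) and the myosin light chain gene *myl6* (-1.42). Shares of the ubiquitin, chromatin, membrane traffic, solute carrier and cytoskeleton lists were between 2.59% and 3.51%, near the 3.06% of all eligible genes. The ubiquitin list also had 12 genes among the 200 with the highest D.

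No member belonged to the lists of deadenylation (30 eligible genes), of tail binding and cytoplasmic polyadenylation (30) or of decapping, exosome and SKI complex (27). Their median D was 0.32, 1.16 and 0.32. D was below 0 for 9, 10 and 8 of them, where 39.4% of all eligible genes were below 0 and 3.06% were members. Both signs occurred in each list, and lists of this size would hold few members at that share. The 67 eligible genes of cytosolic ribosomal proteins, of which 0 were members, had a median D of -0.51 with 60 below 0.

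**Figure D1:**
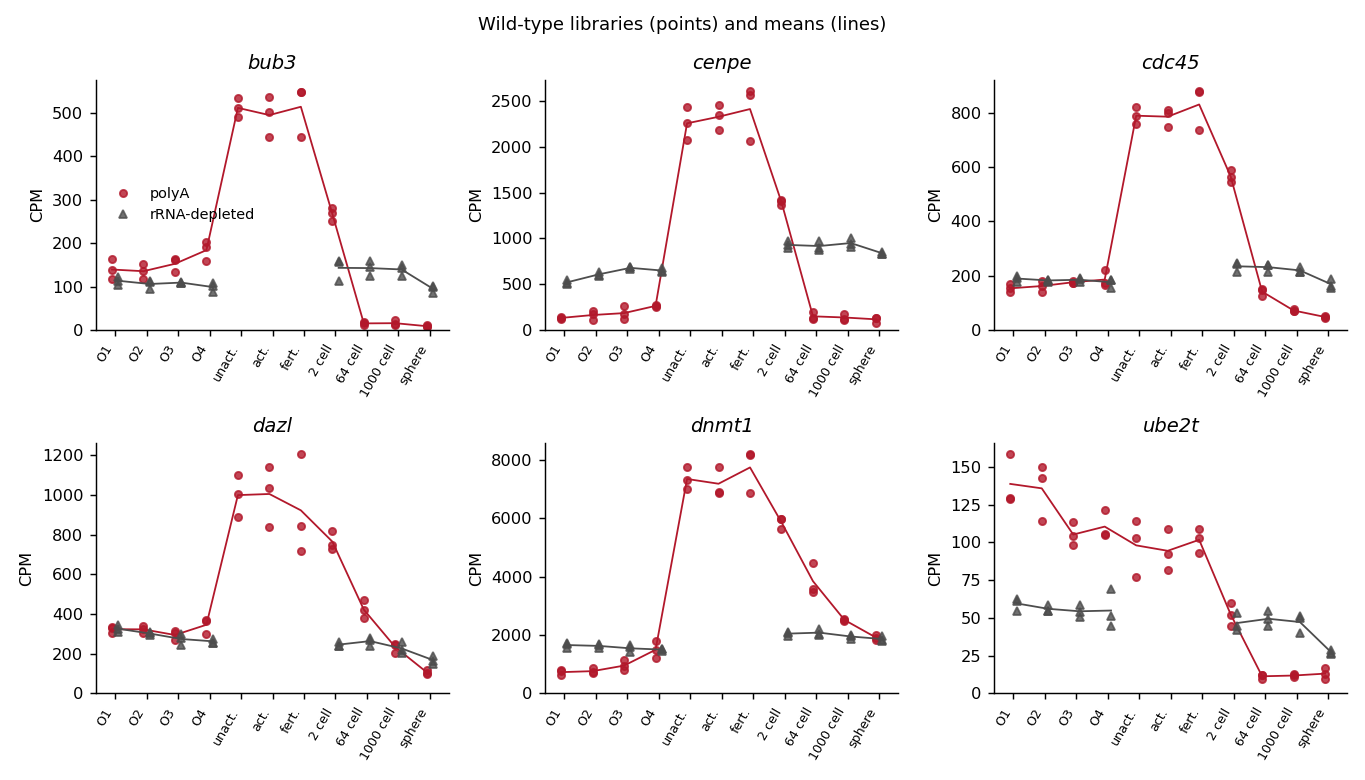
CPM (vertical axis) of 6 of the 200 RNAs in every wild-type library by stage (horizontal axis: oocytes O1 to O4, unactivated, activated and fertilized eggs, 4 embryo stages), with circles for polyA-selected and triangles for rRNA-depleted libraries and lines through the means. The polyA values of *bub3* and *cenpe* were near their final level by 64 cell, *dazl* and *dnmt1* were still declining between 64 cell and sphere, and the rRNA-depleted groups of 2 cell and 1000 cell overlapped for *bub3*, *cenpe* and *dazl*.

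To place the drop in time, the 3 embryonic intervals were compared in wild type. The median difference between polyA and rRNA-depleted change was -1.29 from 2 to 64 cells, -0.23 from 64 to 1000 cells and 0.02 from 1000 cells to sphere, and for 194 of the 200 the larger part of D was reached by 64 cell. *bub3* had 15.1, 11.5 and 19.1 CPM at 64 cell in polyA-selected RNA, close to its 1000-cell values. *sesn2*, which encodes a stress-induced regulator of growth signalling, declined more gradually, from 283, 256 and 281 CPM at 2 cell to 91.3, 80.9 and 75.6 CPM at 64 cell and 35.7, 35.9 and 40.5 CPM at 1000 cell. The libraries of the 2-cell, 64-cell and 1000-cell stages did not overlap for *sesn2*. These intervals use libraries of the choice and carry no test.

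Relative to all eligible genes the 200 RNAs had a high ratio of polyA to rRNA-depleted RNA at 2 cell and a low one afterwards. Their median log2 ratio in CPM in wild type was 0.67 at 2 cell, with 163 of 200 above 0. It was -0.66, -0.95 and -0.88 at 64 cell, 1000 cell and sphere. In wild type the step of this ratio from 2 cell to 1000 cell is D itself and follows from the choice. Where the ratio is 0 depends on the scaling. Over all eligible genes the medians were -0.16, 0.12, 0.14 and 0.13. In oocytes the ratio was -0.41 at O1 and -0.14 at O4, against -0.37 and -0.30 for all eligible genes. In *ski7*-/- embryos the 4 medians were 0.68, -0.70, -0.91 and -0.93.

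**Figure D2:**
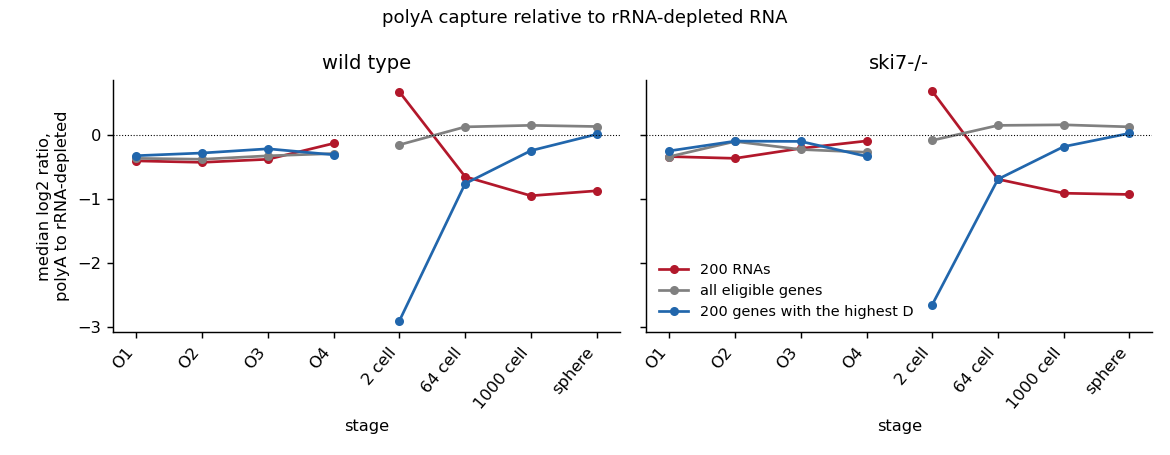
Median log2 ratio of polyA to rRNA-depleted CPM (vertical axis) by stage (horizontal axis) in wild type (left) and *ski7*-/- (right), for the 200 RNAs, all 6526 eligible genes and the 200 genes with the highest D; eggs have no point since the ratio needs both library types. The 200 RNAs were at 0.67 at 2 cell and -0.95 at 1000 cell in wild type, and at 0.68 and -0.91 in the mutant. The wild-type step between these stages follows from the choice.

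The same interval was then tested in *ski7*-/- embryos, whose libraries had no part in the choice. The polyA change minus the rRNA-depleted change from 2 cell to 1000 cell fell in 181 of 194 members tested and rose in 0, at an adjusted p below 0.05 in edgeR's quasi-likelihood test, where 23.9% of all 9666 genes tested fell. The median was -1.93 for the members and 0.09 for all genes tested. *bub3* fell by 4.50 ± 0.46 (log2, SE, adjusted p = 9.04e-08), from 232, 234 and 286 CPM to 16.7, 14.2 and 8.09 CPM in polyA-selected RNA. Its rRNA-depleted values were 122, 126 and 147 CPM at 2 cell and 124, 115 and 117 CPM at 1000 cell. The polyA groups did not overlap in the mutant either.

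Further members fell in *ski7*-/-. *zgc:153345*, of unknown role here, fell by 4.52 ± 0.20 (adjusted p = 2.28e-12), *top2a* by 3.75 ± 0.20 (1.92e-11), *tacc3* by 3.73 ± 0.18 (5.04e-12) and *cdc45* by 3.44 ± 0.22 (1.93e-10). *dazl* fell by 2.03 ± 0.13 (1.44e-10) and *dnmt1* by 1.66 ± 0.07 (1.70e-12). Near the limit, *pdpk1*, which encodes a kinase of insulin signalling, had D of -1.17 in the mutant. In CPM, D in *ski7*-/- had a median of -1.49, was below 0 for 195 members and below -1 for 178, and 159 of the 200 would also have been among the 200 lowest of the mutant.

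The fall was in polyA-selected RNA. In *ski7*-/- embryos polyA-selected RNA alone fell in 186 of 194 members from 2 cell to 1000 cell, where 29.2% of all genes tested fell. rRNA-depleted RNA changed in 0 of 194 (edgeR, adjusted p below 0.05), with 10 at an unadjusted p below 0.05, 9 of them lower, and 0 by DESeq2, while 0.0103% of all genes tested were called and 1.97% had an unadjusted p below 0.05. The 13 members that were tested and not called as lower in the combined contrast included 4 identifiers without a symbol and *rgl3a*, with 49.3, 0.666 and 55.5 CPM in the mutant 2-cell libraries. The 6 members that did not reach the count filter in the mutant were *dlg4*, *slc29a2*, *hscb*, *eloca*, *acy3.1* and ENSDARG00000114100. Scaling by library size alone moved the median of all genes to 0.47 and left 176 members lower.

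**Figure D3:**
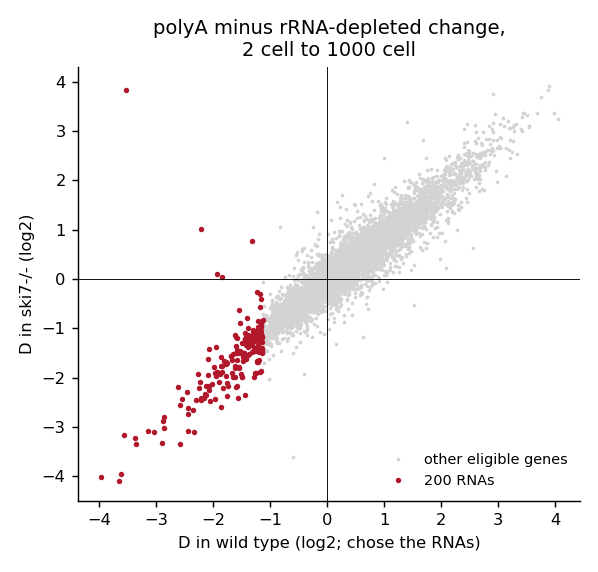
D from 2 cell to 1000 cell (log2) in wild type (horizontal axis, the values that chose the RNAs) against *ski7*-/- (vertical axis) for all 6526 eligible genes, with the 200 RNAs in red. Of the 200, 195 lie below 0 in the mutant, and the 5 above 0 are identifiers without a symbol.

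From 64 cell to sphere the polyA change minus the rRNA-depleted change fell in 60 of 200 members in wild type and rose in 7. Of all genes tested 9.59% fell and 11.5% rose, 21.1% together. The median of the members was -0.37, against -0.01 over all genes tested. The libraries of these stages were not used in the choice, but the span begins inside the interval of the choice. In CPM the median of the members was -0.23 from 64 cell to the end of that interval. From there to sphere it was 0.02, with 94 of 200 below 0. How far the choice set this fall was not tested. *sesn2* fell by 1.59 ± 0.15 (log2, SE, edgeR adjusted p = 7.81e-07), with polyA values of 24.2, 24.9 and 27.8 CPM at sphere. *dazl* fell by 1.498 ± 0.17 (6.79e-06), from 420, 468 and 378 CPM at 64 cell to 99.9, 102 and 117 CPM at sphere in polyA-selected RNA. Neither gene had overlapping polyA groups.

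*hook2* fell by 1.36 ± 0.16 (adjusted p = 9.43e-06), *cdc45* by 1.25 ± 0.12 (1.40e-06) and *trim36* by 1.22 ± 0.13 (2.32e-06), and *dnmt1* gave -1.004 ± 0.12 (1.17e-05). *bub3*, *cenpe* and *tacc3* gave -0.32, -0.37 and 0.09, with adjusted p of 0.539, 0.323 and 0.845. The called rises with the highest fitted values were those of *nupr1a*, which encodes a stress-related nuclear protein, by 1.65 ± 0.25 (9.95e-05), and *stx2*, a syntaxin gene, by 1.03 ± 0.34 (0.037), while ENSDARG00000115819 had a fitted value of 5.58 and was not called (0.287). *nupr1a* had 15.5, 11.1 and 17.6 CPM at 64 cell and 32.3, 36.6 and 31.9 CPM at sphere in polyA-selected RNA, whereas its rRNA-depleted values of 132, 99.6 and 113 CPM and of 66.6, 80.6 and 79.2 CPM went the other way. The count of members called went from 67 to 42 without replicate 1, to 32 without replicate 3 and to 37 without the libraries rich in ENSDARG00000115819.

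In *ski7*-/- the same contrast fell in 57 of 194 members and rose in 8, with a median of -0.42. Of all genes tested 9.84% fell and 12.6% rose, 22.4% together. In CPM the median over the 200 members was -0.24 up to the end of the interval of the choice and -0.01 after it. *sesn2* fell by 1.68 ± 0.30 (adjusted p = 4.68e-04), *cdc45* by 1.46 ± 0.22 (8.89e-05) and *dazl* by 1.14 ± 0.13 (4.58e-06), and *nupr1a* rose by 1.66 ± 0.36 (0.0022). Both genotypes shared 47 genes that fell, which is 78.3% of those in wild type and 82.5% of those in *ski7*-/-. With the replicate number as a block 99 members were called, 84 lower and 15 higher, and without replicate 2 the count was 40.

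RNA level without polyA selection also moved by sphere, in few members. From 64 cell to sphere rRNA-depleted RNA fell in 9 of 200 members in wild type and rose in 0, where 0.25% of all genes tested fell and 0.49% rose, with a median of -0.16 against 0.00. *anapc13* fell by 0.90 ± 0.21 (log2, SE, edgeR adjusted p = 0.049), from 18, 14.3 and 16 CPM to 7.84, 9.27 and 8.14 CPM. *ube2t*, whose product monoubiquitinates FANCD2 in human cells, fell by 0.85 ± 0.19 (0.030), from 49.5, 54.5 and 44.4 CPM to 26.0, 28.7 and 26.6 CPM. Neither gene had overlapping groups. The others were *org*, an oocyte RNA (-0.84), *dazl* (-0.64), *kpna2*, encoding importin alpha (-0.56), *cdc45* (-0.45), the glutaminase gene *gls*, the histone chaperone gene *rbbp4* and *ccdc102a*.

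In *ski7*-/- rRNA-depleted RNA fell in 32 of 194 members from 64 cell to sphere and rose in 0, where 1.91% of all genes tested fell and 2.89% were called in either direction, with a median of -0.25. The largest fall was that of *pef1*, which encodes a calcium-binding protein, by 1.53 ± 0.17 (adjusted p = 4.64e-05), from 30.1, 29.0 and 32.3 CPM to 9.37, 11 and 10.9 CPM. *ube2c*, the conjugating enzyme gene of the anaphase-promoting complex, fell by 1.20 ± 0.16 (2.15e-04), *org* by 0.90 ± 0.10 (4.97e-05) and *dazl* by 0.89 ± 0.09 (4.64e-05). Of the 9 that fell in wild type 7 fell in *ski7*-/- as well, 77.8% of the former and 21.9% of the latter, and the difference between genotypes was not tested. In wild type the count was 1, 5 and 0 without replicates 1, 2 and 3 and 0 without the libraries rich in ENSDARG00000115819. In *ski7*-/- it was 21, 6 and 14 without replicates 1, 2 and 3 and 69 with the replicate number as a block.

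In oocytes of wild type, polyA capture relative to rRNA-depleted RNA rose from O1 to O4 in 35 of 197 members and fell in 2, where 5.66% of all genes tested rose and 1.74% fell, 7.4% together. The median was 0.33 against 0.08. *dnmt1* rose by 1.23 ± 0.17 (log2, SE, edgeR adjusted p = 3.46e-04), with 641, 752 and 787 CPM at O1 and 1221, 1481 and 1778 CPM at O4 in polyA-selected RNA and 1555, 1686 and 1726 CPM and then 1446, 1534 and 1521 CPM in rRNA-depleted RNA. *rab11fip1b*, encoding a Rab11 effector, rose by 1.54 ± 0.40 (0.024) from at most 1.79 CPM to between 5.29 and 7.04 CPM in polyA-selected RNA. *tm2d1* fell by 0.72 ± 0.22 (0.048), and *gpat4*, a gene of glycerolipid synthesis, by 0.59 ± 0.14 (0.016). Leaving out replicates 1, 2 and 3 left 1, 5 and 0 members called, and a block for the replicate number raised the count to 67. Leaving out the libraries rich in ENSDARG00000115819 left a single wild-type O4 library in rRNA-depleted RNA.

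**Figure D4:**
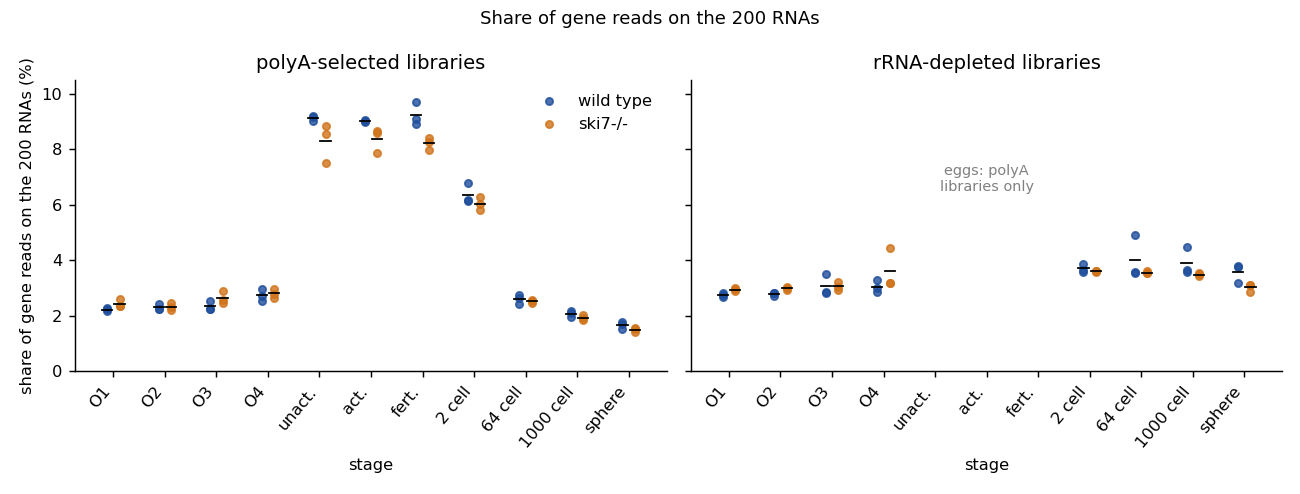
Share of all gene reads (percent, vertical axis) on the 200 RNAs in each library by stage (horizontal axis), with polyA-selected libraries on the left, rRNA-depleted libraries on the right, a point for each library and a bar for the mean of 3. In wild-type polyA libraries the mean was 2.75% at O4, 9.11% in unactivated eggs, 6.36% at 2 cell and 2.61% at 64 cell, while in rRNA-depleted libraries it was 3.05% at O4 and 3.70% at 2 cell.

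Between the largest oocyte and the unactivated egg the 200 RNAs became abundant in polyA-selected RNA. In wild type they took 2.23% of gene reads at O1 and 2.75% at O4 and then 9.11%, 9.02% and 9.23% in unactivated, activated and fertilized eggs, before 6.36% at 2 cell and 1.66% at sphere. PolyA-selected RNA rose from O4 to the unactivated egg in 189 of 199 members and fell in 0, where 38.1% of all genes tested rose and 42.5% fell, 80.7% together. The median was 2.52, against -0.18 over all genes tested and -3.25 over the 200 genes with the highest D. The choice by D favoured RNAs with a high polyA level at 2 cell, the embryo stage next to the egg. At 2 cell the median polyA level was 128 CPM in the members, 56.2 CPM in all eligible genes and 17.1 CPM in those with the highest D. The genes tested carried no such condition, and how far the choice set the egg level was not tested. Only polyA-selected libraries of eggs were analysed here, so a change in tail and a change in amount cannot be told apart at this step.

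*cenpe* rose by 3.95 ± 0.24 (log2, SE, edgeR adjusted p = 1.07e-10), from 267, 246 and 277 CPM at O4 to 2433, 2261 and 2078 CPM in unactivated eggs. *hook2* rose by 4.99 ± 0.26 (1.56e-11), from 6.51, 6.35 and 7.15 CPM to 120, 109 and 124 CPM. *dnmt1* reached 6989, 7305 and 7753 CPM, a rise of 3.16 ± 0.23 (8.58e-10). For these 3 genes every egg library was above every O4 library.

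*rgl3a*, which encodes a Ral exchange factor, rose by 5.48 ± 0.49 (1.15e-08), from 6.66, 7.72 and 2.78 CPM to 167, 178 and 87.0 CPM. *dlg4*, a synaptic scaffold gene, had the highest fitted change (8.60 ± 2.50, 0.0042), but replicate 3 of the eggs was at 0.0635 CPM, against 103 and 82.9 CPM in the others. Small rises were those of *wsb1* by 0.80 ± 0.34 (0.037) and *ube2t* by 0.66 ± 0.16 (0.0012). Scaling by library size alone moved the median of all genes to -1.04 and reversed both, to -0.08 and -0.17. *ube2t* had 121, 105 and 106 CPM at O4 and 114, 103 and 77.2 CPM in unactivated eggs, so these groups overlapped in CPM. *cyp11a1*, *atp5po*, *cenpx*, *myl6* and *elapor2* were among the 10 members not called.

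With that scaling 181 members rose and 3 fell, and without the egg libraries that held *apoeb* 178 rose. Summed CPM of 9 matched markers of follicle and theca cells, of 11 listed, was between 71.5 and 297.4 in wild-type polyA-selected oocytes and between 143.6 and 278.4 in eggs, with 0 and 1 of them at 0 in all libraries. In wild-type polyA-selected embryos the sum was between 165.3 and 303.8, with 3 of these markers at 0 in all libraries. The sum thus did not set oocytes and eggs apart from embryos, though single markers found in oocytes were absent from embryos. The 3 matched blood markers, of 5 listed, summed to between 0.907 and 29.2 CPM in oocytes and to at most 2.61 CPM in eggs. Leukocyte markers, 3 matched of 5 listed, summed to at most 5.87 CPM in oocytes and up to 21.5 CPM in eggs. The median sum was 2.31 CPM in oocytes and 0.56 CPM in eggs, so the typical egg library was lower. The 5 markers of fibroblasts and endothelium summed to between 7.99 and 47 CPM in oocytes and between 4.50 and 17.2 CPM in eggs. Their part in the result was not tested.

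Activation and fertilization were not seen to change the group in a fit that did not pair the eggs of each female. From the unactivated to the fertilized egg 0 of 199 members were called by edgeR, 0 had an unadjusted p below 0.05 and 0 were called by DESeq2, where 1.38% of all genes tested fell and 0.0627% rose, 1.44% together, and 7.05% had an unadjusted p below 0.05. *bub3* had 510, 491 and 534 CPM in unactivated and 445, 549 and 548 CPM in fertilized eggs of wild type. *dazl* had 888, 1007 and 1103 CPM and then 718, 844 and 1206 CPM. Groups of both genes overlapped. The median of the members was -0.08 and that of all genes tested -0.06. Fitted values were below 0 for 170 of the 199 members and for 64% of all genes tested. Same-numbered egg libraries of wild type deviated together over the stages (mean correlation 0.884). Changes smaller than the spread between females could thus be missed.

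The effect of *ski7* loss on these RNAs was tested at stages whose wild-type libraries had not chosen them. The choice still asked for 10 CPM in wild type only and favoured a high wild-type polyA level at 2 cell. RNAs low in the mutant could enter, and RNAs low in wild type at those stages could not, which favours lower values in *ski7*-/-. All genes tested carried no such condition, and how far the choice set the genotype difference was not tested. In polyA-selected eggs of *ski7*-/- 76 of 197 members were lower at 1 or more of the 3 egg stages and 1 was higher, where 12.2% of all genes tested were lower and 11.4% higher, 23.6% together. The median difference was -0.35 in unactivated, -0.30 in activated and -0.39 in fertilized eggs, against 0.05, 0.04 and 0.03 over all genes tested. The 200 genes with the highest D, of which 149 were tested, had medians of 0.595, 0.541 and 0.695. Over all 200 of those genes the median level in unactivated eggs was 6.70 CPM in wild type and 10.99 CPM in *ski7*-/-. The filter of 10 CPM in 3 libraries of either genotype could thus be passed through the mutant libraries alone, which favours positive values. These medians are therefore no contrast to the members. The 3 egg stages share their females and are not independent of each other, and fits on the groups of each stage alone called 25 members, 24 lower and 1 higher.

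*cenpe* was lower by 0.34 ± 0.07 in unactivated eggs (log2 of *ski7*-/- over wild type -0.34, SE, adjusted p = 0.0065), with 2124, 2102 and 1991 CPM against 2433, 2261 and 2078 CPM. *kif11* gave -0.47 ± 0.09 (0.0028), with 1065, 1133 and 1016 CPM against 1451, 1187 and 1212 CPM, and *dnmt1* -0.53 ± 0.14 (0.020), with 6315, 6305 and 5163 CPM against 6989, 7305 and 7753 CPM. The groups of *kif11* and *dnmt1* did not overlap, and those of *cenpe* overlapped in part. *bub3* gave -0.55 ± 0.15 (0.023) and *trim36* -0.51 ± 0.16 (0.038). *ppt2*, encoding a lysosomal thioesterase, was the member that was higher, by 0.82 ± 0.18 (0.0077), with 996, 1016 and 853 CPM against 412, 498 and 486 CPM.

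In unactivated eggs 63 members were called, where 18.4% of all genes tested were, and the genotypes did not overlap in CPM for 46 of them, of which 45 were lower in the mutant. Of all 1330 genes called at this stage the genotypes did not overlap for 1183, or 88.9%. With scaling by library size alone, which moved the median of all genes to 0.27, 38 members were lower and 8 higher over the 3 stages, and 71 were called without the libraries that held *apoeb*. The count was 37 without wild-type replicate 2 and 46, 46 and 45 without *ski7*-/- replicates 1, 2 and 3.

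**Figure D5:**
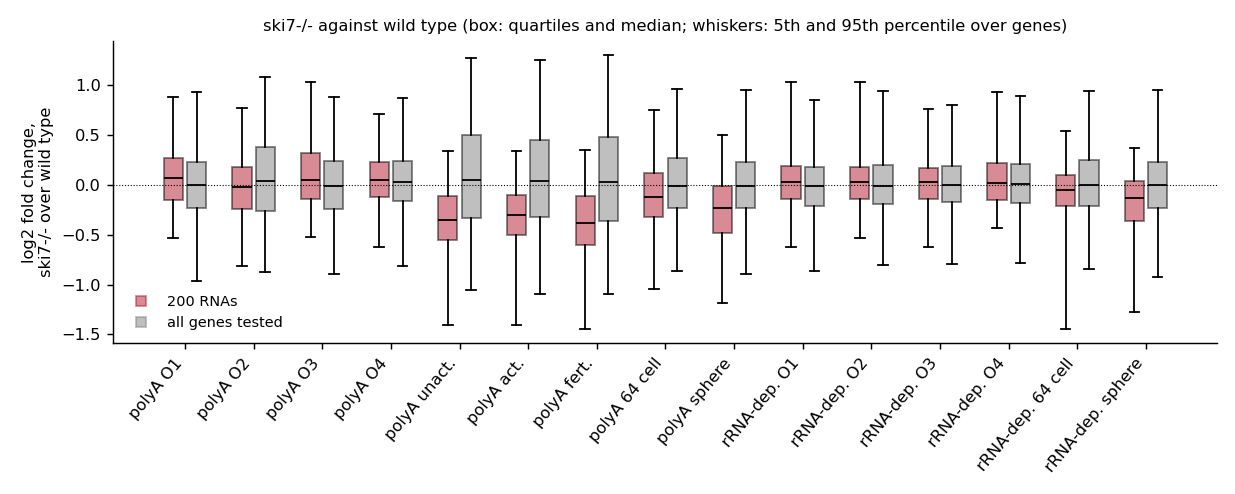
Log2 fold change of *ski7*-/- over wild type from the edgeR fits (vertical axis) at each stage and library type not used in the choice (horizontal axis), for the members tested (red, 191 to 200) and all genes tested (grey). Boxes give quartiles and median and whiskers the 5th and 95th percentiles over genes, and the red medians of eggs are at -0.35, -0.30 and -0.39.

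In polyA-selected embryos 43 of 199 members were lower in *ski7*-/- at 64 cell or sphere and 10 were higher, where 10.3% and 10.1% of all genes tested were lower and higher, 20.4% together. The medians were -0.12 at 64 cell and -0.24 at sphere, against -0.01 over all genes tested at both stages. *dazl* was lower by 0.74 ± 0.11 at 64 cell (log2 -0.74, edgeR adjusted p = 2.39e-04), with 227, 269 and 289 CPM against 420, 468 and 378 CPM, and gave -0.66 ± 0.12 at sphere (7.25e-04). *org* gave -0.47 ± 0.11 and -0.58 ± 0.11 (0.0069 and 0.0014) and *dnmt1* -0.35 ± 0.08 and -0.37 ± 0.08 (0.0081 and 0.0049). *dck*, the deoxycytidine kinase gene, was higher at sphere by 2.20 ± 0.62 (0.022), with 4.80, 3.29 and 1.12 CPM against 0.123, 0.828 and 1.02 CPM. The groups of *dazl* did not overlap and those of *dck* were separated by 1.02 and 1.12 CPM. The count of 53 was 32 without wild-type replicate 3 and 33 without *ski7*-/- replicate 2. Same-numbered libraries of the embryo stages in this fit deviated together, with mean correlations of 0.531 in wild type and 0.852 in *ski7*-/-. The stages are thus not independent of each other, and fits on the groups of each stage alone called fewer members.

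In rRNA-depleted embryos 31 of 200 members were lower and 8 higher at 64 cell or sphere, where 8.6% and 7.82% of all genes tested were, 16.4% together. Here too same-numbered libraries deviated together over the stages (mean correlations 0.418 in wild type and 0.801 in *ski7*-/-), and fits on the groups of each stage alone called fewer members. *dazl* gave -0.68 ± 0.10 at sphere (edgeR adjusted p = 1.27e-04), with 113, 99.7 and 106 CPM against 147, 190 and 165 CPM. Both library types thus showed this gene lower without overlap. At sphere same-numbered libraries of both types deviated together (mean correlations 0.602 in wild type and 0.777 in *ski7*-/-), so they are not independent of each other. *pef1* gave -0.77 ± 0.19 (0.012) and *kpna2* -0.28 ± 0.08 (0.024). *elapor2* was higher by 1.42 ± 0.30 (0.0039), with 29.0, 26.9 and 27.2 CPM against 12.7, 6.37 and 11.8 CPM. The count of 39 was 21 without *ski7*-/- replicate 2 and 20, 12 lower and 8 higher, without the libraries rich in ENSDARG00000115819, which left 1 wild-type sphere library that is assumed to vary like the other groups.

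In oocytes members were called in both directions. In polyA-selected oocytes 15 of 191 members were higher in *ski7*-/- at 1 or more stages and 6 lower, where 8.23% and 7.14% of all genes tested were, and DESeq2 called 34 and the fit without the O2 library that stood apart 30. In rRNA-depleted oocytes 28 of 197 were higher and 22 lower, where 10.6% and 11.5% of all genes tested were, 22.1% together. The oocyte stages share their females, and same-numbered rRNA-depleted libraries deviated together (mean correlations 0.784 in wild type and 0.631 in *ski7*-/-). Fits on the groups of each stage alone called fewer members in rRNA-depleted RNA. Medians were between -0.02 and 0.07 in both library types. *ppt2* was already higher at O4, with 847, 825 and 906 CPM against 360, 428 and 571 CPM in polyA-selected RNA (0.97 ± 0.14, adjusted p = 1.42e-04). *tmprss4b*, encoding a transmembrane protease, was higher by 2.06 ± 0.40 (0.0022), with 60.1, 49.6 and 34.2 CPM against 18, 8.04 and 7.89 CPM at O1. *si:dkey-73n10.1* was higher by 2.90 ± 0.90 (0.033), with 92.6, 81.1 and 82.5 CPM against 16.1, 0.225 and 16.6 CPM in rRNA-depleted RNA at O1. The rRNA-depleted count of 50 was 31 and 30 without *ski7*-/- replicates 1 and 2 and 41, 24 higher and 17 lower, without the libraries rich in ENSDARG00000115819, which left 1 wild-type O4 library. Whether the genotype difference itself differed between oocytes and eggs was not tested.

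At 2 cell and 1000 cell the wild-type libraries chose the members, so genotypes are set side by side there. In CPM the median difference of *ski7*-/- from wild type over the 200 RNAs was -0.09 at 2 cell and -0.19 at 1000 cell in polyA-selected RNA, and -0.03 and -0.08 in rRNA-depleted RNA. Over all eligible genes it was 0.05, -0.02, -0.01 and -0.01.

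A few members were nearly absent from a genotype or from single replicates. *dlg4* was between 0 and 0.587 CPM in every polyA-selected embryo library of *ski7*-/-, and at 69.5, 76.8 and 75.8 CPM at 2 cell and 32.5, 30.5 and 36.1 CPM at sphere in wild type. In wild type it was also at 0 CPM in 64-cell replicate 2, and the replicates of unactivated eggs ranged over 6.62 on the log2 scale. Its mutant libraries held so few reads that no fold is given. *sardh*, encoding sarcosine dehydrogenase, was at 0.607, 0.792 and 0.436 CPM in unactivated eggs of *ski7*-/- against 36.2, 38.1 and 59.3 CPM in wild type, but at 21.4, 19.0 and 19.8 CPM against 45.0, 22.5 and 22.7 CPM at 2 cell. The difference was -6.27 ± 0.44 in eggs (edgeR adjusted p = 4.81e-07). *ppip5k1b*, an inositol pyrophosphate kinase gene, was at 0.455, 1.13 and 0.582 CPM in unactivated mutant eggs and at 19.7, 0.545 and 45.7 CPM in mutant 2-cell embryos. *slc29a2*, a nucleoside transporter gene, was at 3.06, 0.393 and 3.22 CPM in mutant sphere embryos against 6.88, 6.62 and 11.9 CPM. For *sardh* and *ppip5k1b* mutant eggs and 2-cell embryos thus had different levels, which in *ppip5k1b* held for 2 of the 3 replicates, and the part of the parents in the genotype difference was not tested.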

How the data were processed

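PolyA-selected and rRNA-depleted RNA of zebrafish oocytes, eggs and embryos was sequenced in 114 libraries. The authors trimmed reads with bbduk, aligned them to GRCz11 with HISAT2 and deposited raw read counts per Ensembl gene from HTSeq (the submitters' processing notes name HISAT2 2.1.0 and HTSeq 0.9.1), and their transcript estimates were not used here. Reads outside genes were left out of totals. Depth was between 2910639 and 145420525 reads on genes in polyA-selected and between 1439427 and 46600444 in rRNA-depleted libraries, and limits from counts cover counting error only. Of 31466 identifiers 28965 (92.1%) matched a symbol, written in lower case.

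CPM was computed from the counts. Changes were tested on the counts with edgeR 4.0.16 (TMM scaling, quasi-likelihood test, Benjamini-Hochberg adjustment over all genes tested, adjusted p below 0.05) in R 4.3.3, for genes with at least 10 CPM in 3 libraries. Changes over both library types used an interaction term. DESeq2 1.42.0, other scalings and filters, and fits without single replicates were alternatives, for which counts are given for members only. The fitting code was tested on simulated data. Same-numbered libraries of a genotype shared deviations in oocytes, eggs and embryos (mean correlations between 0.418 and 0.884 over stages), but not from oocyte to egg. Same-numbered polyA-selected and rRNA-depleted libraries of a stage also shared them (mean correlations between 0.366 and 0.814). The main fits did not pair these libraries. Across genotypes mean correlations were low, between -0.107 at O2 and 0.131 at O4 in polyA-selected RNA. A single pair of unactivated egg libraries reached 0.395. Oocyte and egg numbers are taken to mark females, which the sample titles do not state. Whether embryo stages share a clutch is not given in the sources used here, so p-values measure the spread between these samples.

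The members and gene lists were chosen with earlier results of these data known. Named genes were the 12 with a symbol and the lowest D, those at the limit, the called genes with the highest and lowest changes, and up to 4 members with the lowest D of each list. Further cell cycle members were named to complete that list, and *org*, *pef1*, *kpna2*, *gls*, *rbbp4*, *ccdc102a*, *eloca*, *hscb*, *cyp11a1*, *atp5po* and *apoeb* were named after their values were seen. No sequences were used here.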

Additional observations from a re-analysis of the deposited data

Results flagged for a closer look

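*rnf7*, which encodes a RING subunit of cullin ubiquitin ligases, was looked at again because same-numbered libraries went one way in wild type and the other way in *ski7*-/- from 64 cell to sphere in polyA-selected RNA. Wild-type libraries had 4.87, 7.68 and 7.55 CPM at 64 cell and 4.91, 9.11 and 8.73 CPM at sphere, a mean log2 change of 0.139 with all 3 replicates higher. The *ski7*-/- libraries had 7.90, 8.83 and 6.70 CPM and then 7.63, 6.95 and 5.32 CPM, a mean log2 change of -0.212 with all 3 lower. The 64-cell and sphere groups overlapped in both genotypes, and the fitted changes of 0.05 ± 0.31 and -0.31 ± 0.17 did not pass (edgeR, adjusted p = 0.918 and 0.232). Whether same-numbered embryo libraries share a clutch is not given in the sources used here, and the difference between genotypes was not tested.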

How the results depend on the processing

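The loss from 2 to 1000 cells in *ski7*-/- (181 members) was between 176 and 190 under all alternatives run, and the rise from O4 to the unactivated egg (189) between 178 and 190. The choice of members kept between 176 and 198 of the 200. Fits on the groups of the contrast alone gave 39 members for wild type from 64 cell to sphere, 3 and 13 for rRNA-depleted RNA in wild type and *ski7*-/-, and 25, 21, 26 and 12 for the genotypes in polyA eggs, polyA embryos, rRNA-depleted oocytes and rRNA-depleted embryos. Without a filter the counts were 3 and 21 for rRNA-depleted RNA, 41 for eggs and 32 for rRNA-depleted oocytes. Scaling by library size alone gave 24 from O1 to O4 and 46 for eggs, and turned *wsb1* (-0.077) and *ube2t* (-0.17) from O4 to the egg. A filter of 1 CPM gave 15 from O1 to O4, and DESeq2 called 34 in polyA oocytes. With the replicate number as a block 99 and 69 members were called in *ski7*-/- from 64 cell to sphere (both libraries, rRNA-depleted RNA) and 67 from O1 to O4. Between genotypes, where numbers do not pair samples, the block gave 31, 98, 68, 70 and 54 in polyA oocytes, eggs and embryos and in rRNA-depleted oocytes and embryos, and it moved no other count by over 1.5 times. Leaving out single replicates gave 32 to 47 and 40 to 53 for the 64-cell to sphere change in wild type and *ski7*-/-, 0 to 5 and 6 to 21 for rRNA-depleted RNA, 0 to 5 from O1 to O4, 37 to 93 for eggs, 32 to 41 for polyA embryos, 30 to 39 for rRNA-depleted oocytes and 21 to 37 for rRNA-depleted embryos. Without the libraries rich in ENSDARG00000115819, an alternative chosen after seeing the data, 37, 0 and 11 members were called from 64 cell to sphere, in rRNA-depleted RNA and from O1 to O4 in wild type, and 20 between genotypes in rRNA-depleted embryos. Apart from fewer samples or other genes tested, the cause was not tested. The counts under alternatives are of members alone, without the share of all genes called under the same alternative. A change over all genes and a change of the members only can thus not be told apart from them. At 3 reads the depth limit was up to 2.08 CPM in rRNA-depleted libraries.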

Other observations

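Levels of some members varied between replicates far more than those of most. The median range over the 3 libraries of a group was at most 0.59 on the log2 scale, while 30 of the 200 members had a range over 2 in any of the 38 groups. *eloca* did so in 16 groups and *hscb* in 15. *iqgap3* in wild-type replicate 2 had 222 CPM at 2 cell, 420 CPM at 64 cell and 228 CPM at 1000 cell in rRNA-depleted RNA, against between 440 and 487 CPM in the other replicates of these stages. *dlg4* was at 0 CPM in wild-type 64-cell replicate 2 in both library types, whereas the other wild-type polyA embryo libraries had between 30.3 and 76.8 CPM. In *ski7*-/- replicate 2 *rgl3a* was at 4.52 CPM in unactivated eggs and 0.666 CPM at 2 cell, against 73.7 and 65.7 CPM and 49.3 and 55.5 CPM in the other replicates.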
